A study of Rattus norvegicus with 6 samples.

Results

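Beta cells keep a small group of otherwise widespread transcripts at a low level, and these transcripts are known as disallowed genes. The group examined here held 6 of them, Ldha, Slc16a1, Hk1, Acot7, Oat and Mgst1, chosen by gene symbol through the RefSeq accessions of the array probes. Probes were found for 5 of the 6, and these 5 were among 11200 genes tested, out of 13903 genes with a named probe. No accession on the array mapped to Hk1, the hexokinase with high glucose affinity, and it was not analysed here.

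In most cells pyruvate can be turned into lactate by lactate dehydrogenase and carried across the plasma membrane by monocarboxylate transporters. Beta cells instead send pyruvate into mitochondria, where its oxidation supplies the ATP that closes potassium channels and triggers insulin release. Low lactate dehydrogenase A (Ldha) and low monocarboxylate transporter 1 (Slc16a1) keep lactate and pyruvate from outside the cell from setting off secretion. The other members act elsewhere: Acot7 hydrolyses fatty acyl-CoA, Oat transfers the amino group of ornithine in mitochondria, and Mgst1 is a membrane-bound glutathione transferase.

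Islets were taken by collagenase digestion from the pancreas of male Wistar rats, aged 3 months in one group and 12 months in the other, and their total RNA was labelled with Cy3 and hybridised to 6 1-colour arrays, 3 of each age, from 3 rats of each age per the study's design. No treatment or transgene was given in the labels for either age, so that the comparison asks which transcripts differed between the islets of the older and the younger animals. Islets also hold other endocrine, endothelial, stromal and nerve cells, and exocrine tissue can come along. The summed signal of acinar markers was strong on every array, as given below. The signal of a disallowed gene thus cannot be assigned to beta cells, and fewer cells of a type cannot be told apart from less RNA per cell. Levels are given as log2 of the background-subtracted signal after quantile normalisation, and "well above background" is the mark of the scanner software.

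Each age had its own scan, and an effect of scanning cannot be told apart from one of age. The median negative control signal was 29.5 to 31 scanner units on the 3-month arrays and 89.5 to 91 on the 12-month arrays, and 73.0% to 77.4% against 59.5% to 64.2% of probes were well above background. Over all tested probes the median difference, 12 months minus 3 months, was -0.17 on the log2 scale, and over all tested genes it was -0.13. This baseline depends on the filter for dim probes. The median over probes was -0.065 with no such filter and -0.082 with only probes well above background on all 6 arrays.

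No age difference passed a test for any of the 5 measured members. With limma and Benjamini-Hochberg adjustment over 17937 probes, 0 of 5 were called at an adjusted p under 0.05, beside 8.37% of all tested probes (5.32% higher and 3.05% lower at 12 months). The study called genes at more than 2-fold with an unadjusted p under 0.05, by a test of its own. With the p of limma in its place, 0 of 5 members passed these limits (called the study's threshold from here on), beside 22% of all probes (10.1% higher and 11.9% lower). An unadjusted p under 0.05 alone was reached by 0 of 5 members and 32.4% of probes. The values of the 2 ages overlapped for 5 of 5 members, while 39.3% of probes had ages that did not overlap. By the methods' t-test, run unpaired on the same values, 0 of 5 passed those limits and 0 of 5 passed after adjustment. By sign, 3 members stood higher and 2 lower at 12 months, with a median difference of 0.07 that turned to -0.22 under a 75th percentile shift and to -0.0088 under normexp background correction. The intervals below show which sizes of change the 6 arrays leave possible.

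**Figure D1:**
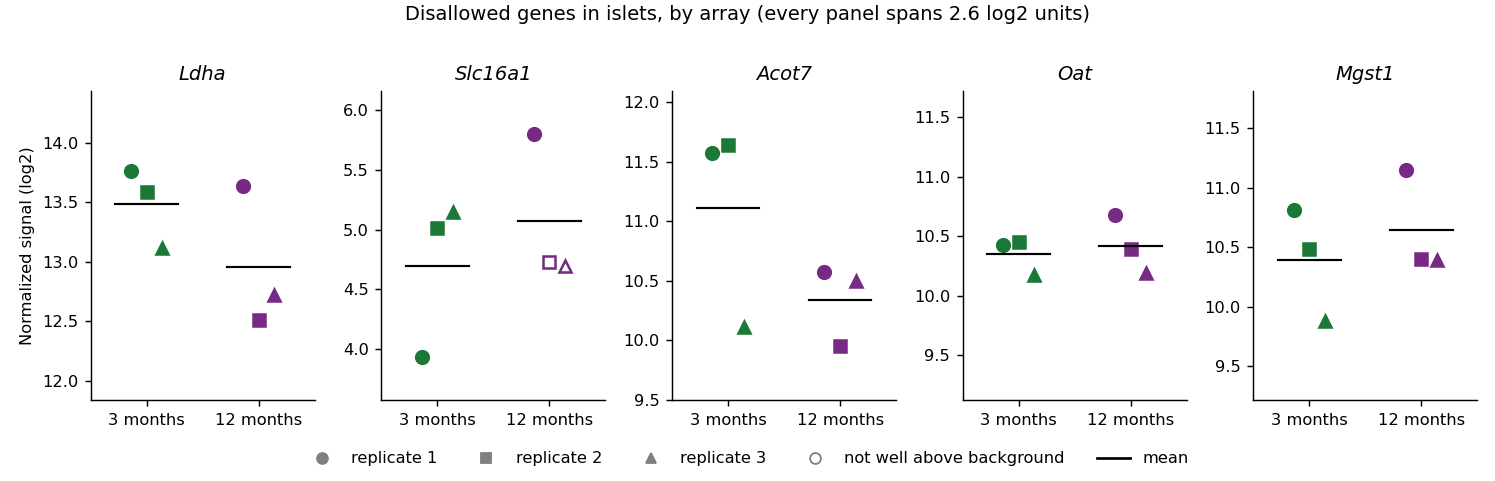
Normalised log2 signal of the 5 measured disallowed genes on each array, with 3-month arrays in green and 12-month arrays in purple, the replicate number as the marker shape, open markers where the probe was not well above background and the age mean as a black bar. Every panel spans the same log2 range around its own gene; the ages overlap in each panel, and 12-month replicate 1 is the highest 12-month array in all 5.

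Ldha, the subunit that favours the conversion of pyruvate to lactate, had a normalised log2 level of 13.77, 13.59 and 13.12 on the 3-month arrays and 13.64, 12.51 and 12.73 on the 12-month arrays, well above background on all 6. Of the 12-month arrays 2 lay below every 3-month array, and 12-month replicate 1 lay among the 3-month values. The 3-month mean was 13.49 ± 0.33 (SD, n = 3) and the 12-month mean 12.96 ± 0.60 (SD, n = 3). Their difference was -0.53 (SE 0.37, 95% interval -1.41 to 0.34, adjusted p = 0.340 by limma), a fold of 0.691 with an interval from 0.378 to 1.27. An exact two-sided permutation test gave p = 0.3, where 3 arrays against 3 cannot go below 0.1. Before normalisation the same probe read 4166, 12710 and 12050 scanner units at 3 months and 22250, 10150 and 5455 at 12 months, and the arrays did not fall in the order of the normalised levels.

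The array carried 3 probes for the single Ldha accession, and their signs differed. The probe above was printed on 1 spot. The second, printed on 10 spots, stayed within 0.078 of it on every array after normalisation and differed between the ages by -0.57 (SE 0.37, adjusted p = 0.311). The remaining probe, also on 10 spots, read 6.15, 4.71 and 4.66 at 3 months and 7.81, 4.39 and 9.02 at 12 months. Here 12-month replicates 1 and 3 lay above every 3-month array, and 12-month replicate 2, which was not well above background, lay below them. The difference of this probe was 1.90 (SE 1.15, 95% interval -0.82 to 4.63, adjusted p = 0.283), opposite in sign to the others. RefSeq lists 30 pseudogenes named after Ldha and 1 after Oat, and 0 after the other members. Probe sequences were not used here, so which transcripts each probe can bind was not tested.

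**Figure D2:**
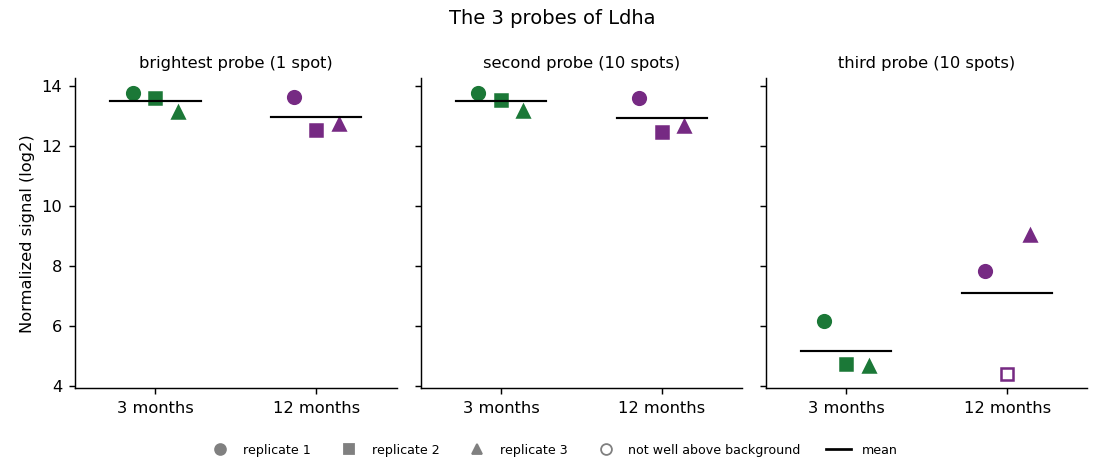
Normalised log2 signal of the 3 Ldha probes on each array, on a shared vertical axis, with open markers where the probe was not well above background. The first and second probes place the arrays alike, with 12-month means 0.53 and 0.57 below the 3-month means, and the remaining probe places 2 of the 12-month arrays above all 3-month arrays.

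Slc16a1, the carrier of lactate and pyruvate whose silence in beta cells protects against insulin release on exercise, was the 1 member that did not clear background on every array. Its log2 level was 3.93, 5.01 and 5.15 at 3 months, marked well above background on 3 of 3 arrays, and 5.80, 4.72 and 4.70 at 12 months, marked on 1 of 3. Before normalisation 3-month replicate 1 was marked at 9.206 scanner units, while 12-month replicate 2 was unmarked at 33.64. Counts of marks thus cannot be compared between the ages, here or for the genes below. The 12-month array with the mark, replicate 1, was the highest of all 6, and 3-month replicate 1 was the lowest, so that the ages overlapped. Means of 4.70 ± 0.67 (SD, n = 3) and 5.07 ± 0.63 (SD, n = 3) gave a difference of 0.38 (SE 0.46, 95% interval -0.71 to 1.46, adjusted p = 0.582 by limma; exact permutation p = 0.6). With a 75th percentile shift in place of quantile normalisation the difference was -0.22, and without 3-month replicate 1 it was -0.0054.

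Acot7, the acyl-CoA thioesterase, had the largest difference of the 5 on the log2 scale. Its levels were 11.57, 11.64 and 10.11 at 3 months and 10.57, 9.95 and 10.50 at 12 months, well above background on all 6 arrays. The 3-month replicates 1 and 2 lay about 1 log2 unit above every 12-month array, and 3-month replicate 3 lay among the 12-month values. The means were 11.11 ± 0.87 (SD, n = 3) and 10.34 ± 0.34 (SD, n = 3), a difference of -0.77 (SE 0.46, 95% interval -1.86 to 0.33, adjusted p = 0.281 by limma; exact permutation p = 0.3). A second Acot7 probe, for another RefSeq transcript, stayed within 0.200 of the first on every array and gave -0.64 (SE 0.44, adjusted p = 0.338). This was the 1 member that reached the study's threshold when a single array was left out: without 3-month replicate 3 its difference was -1.27 with an adjusted p of 0.0907.

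Oat, the mitochondrial ornithine aminotransferase, stood at 10.43, 10.45 and 10.17 at 3 months and 10.67, 10.39 and 10.19 at 12 months. All 6 arrays lay close together and the ages were interleaved. The difference of 0.07 had the smallest standard error of the members (SE 0.24, 95% interval -0.51 to 0.65, adjusted p = 0.857 by limma; exact permutation p = 0.9), and its interval runs from a fold of 0.703 to one of 1.57. A change of 2-fold in either direction thus lay outside the interval of Oat alone among the 5.

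Mgst1, which conjugates glutathione in the endoplasmic reticulum and outer mitochondrial membranes, stood at 10.82, 10.49 and 9.88 at 3 months and 11.15, 10.40 and 10.39 at 12 months. The highest value was that of 12-month replicate 1 and the lowest that of 3-month replicate 3, and the other arrays were interleaved. The difference was 0.25 (SE 0.35, 95% interval -0.59 to 1.09, adjusted p = 0.639 by limma; exact permutation p = 0.6). Without the first of these arrays the difference was -0.00061, and without the other it was -0.0064.

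Single arrays moved several members at once. The 12-month replicate 1 was the highest array of its age for 5 of 5 members and lay on average 0.48 above the 12-month means of the members, while 3-month replicate 3 was the lowest of its age for 4 of 5, with an average deviation of -0.32 from the 3-month means. Leaving out 12-month replicate 1 left no overlap for 1 member, Ldha (difference -0.87, adjusted p = 0.216), and leaving out 3-month replicate 3 left none for 1 member, Acot7. Across 18 alternative settings the count of members called was 0 in each, also where the limit was raised to an adjusted p under 0.1. The replicate block and the fit on 4 arrays called 0 of all probes, so they could call no member.

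The profiles of single genes most like each member were sought among 9086 other genes well above background on all 6 arrays (9087 for Slc16a1), as the root mean square difference between log2 profiles centred on their own means. Ldha ran closest to Crip2 (0.104), Sdc1 (0.109) and Wdr72 (0.133), against a spread of 0.477 of Ldha itself. Slc16a1 ran closest to Mgp (0.163), Irak3 (0.172) and Ppic (0.176), and Acot7 to Cyp4f1 (0.151), Cblc (0.177) and Fgfrl1 (0.197). Oat ran closest to Myo16 (0.0504), Lhfpl6 (0.0699) and Zfp707 (0.0754), and Mgst1 to Myo1e (0.0850), RT1-A2 (0.111) and Pcp4 (0.117). No gene appears beside more than 1 member, and with only 6 arrays and a separate scan for each age these distances are a description.

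The immediate partners of the members were measured in part. Ldhb, the other main lactate dehydrogenase subunit, and Mgst3 had no named probe. Slc16a3, the lactate exporter of glycolytic cells, stood at 10.995, 10.83 and 11.35 at 3 months and 9.29, 9.72 and 10.34 at 12 months. Every 12-month array lay below every 3-month array. Its difference was -1.27 (SE 0.33), with an adjusted p of 0.0617 by limma that missed the threshold. It passed under normexp (0.0330), the filter on all 6 arrays (0.0455), the trend with robust variances (0.0399) and array weights (0.0274). No other alternative at that threshold took it past, and the fits without 1 array gave adjusted p from 0.0734 to 0.187. The looser limit of 0.1 used the same p of 0.0617. Slc16a7, a carrier with high pyruvate affinity, differed by 0.27 (adjusted p = 0.581), was well above background on 1 of 3 arrays at 12 months and 3 of 3 at 3 months, and turned to -0.23 under the 75th percentile shift. Basigin (Bsg), the chaperone that brings Slc16a1 to the membrane, ranged from 12.02 to 13.68 at 3 months and from 12.49 to 14.65 at 12 months, with a difference of 0.67 (adjusted p = 0.504). Mgst2 differed by -0.36 (adjusted p = 0.415).

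Hk2, the insulin-responsive hexokinase of muscle and fat, cleared the background mark on 0 of 3 arrays at 12 months and 3 of 3 at 3 months. Its signal there was too low to give a bound on a fold, with measured means of 3.82 and 4.48 and an adjusted p of 0.237. Hk3 differed by -1.12 (adjusted p = 0.243), with 3-month replicate 3 far above the rest at 16.23.

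The wider group of disallowed genes gave no call either. Of 15 further genes on such lists, 13 had a probe and 11 were tested, and 0 were called at an adjusted p under 0.05, beside 7.86% of all tested genes. An unadjusted p under 0.05 was reached by 3 of the 11, beside 32.4% of probes, and the study's threshold by 1, Ndrg2, beside 22%. By sign 7 stood higher and 4 lower at 12 months, with a median of 0.29, where 43.5% of all tested genes stood higher. Ndrg2, a stress-responsive gene of the alpha/beta hydrolase fold, stood at 12.53, 11.69 and 11.61 at 3 months and 11.07, 10.25 and 10.56 at 12 months. Every 12-month array lay below every 3-month array, and the difference of -1.32 (SE 0.36) had an adjusted p of 0.0658 by limma. Igfbp4, a secreted binder of insulin-like growth factors, stood at 13.92, 14.33 and 13.48 at 3 months and 14.97, 14.46 and 14.84 at 12 months. Every 12-month array lay above every 3-month array here, with a difference of 0.85 (SE 0.30, adjusted p = 0.113). Fcgrt, the neonatal Fc receptor subunit, was lower on all 12-month arrays with a difference of -0.78 (adjusted p = 0.148), and Pdgfra, the platelet-derived growth factor receptor alpha, differed by 0.13 (95% interval -0.79 to 1.04, adjusted p = 0.835). Smad3 and Rest cleared background on 0 of the 6 arrays, and Yap1 and Itih5 had no named probe. Ndrg2, Igfbp4 and Fcgrt were picked out after their values were seen.

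**Figure D3:**
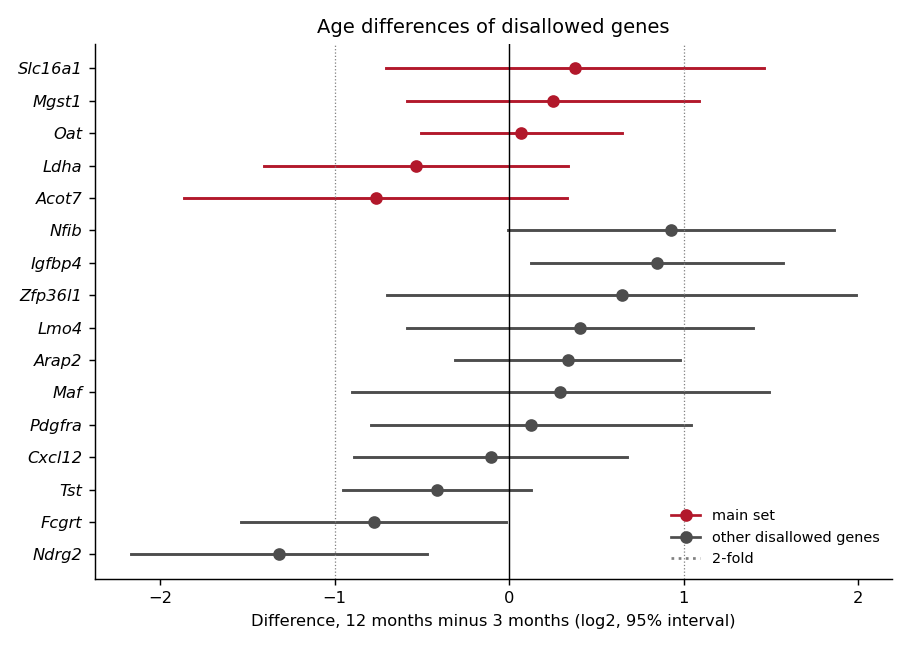
Difference between the ages, 12 months minus 3 months on the log2 scale, of the 5 measured members (red) and the 11 other tested disallowed genes (grey), with bars for the 95% interval of limma and dotted lines at 2-fold. All 5 intervals of the members cross 0, and among the others those of Igfbp4, Fcgrt and Ndrg2 do not, though none passed the adjusted threshold.

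Genes around the members were counted in 6 lists, and 5 of their 113 tested genes (4.42%) were called, beside 7.86% of all tested genes. Of 25 tested genes of lactate and pyruvate handling, 1 rose and 1 fell at an adjusted p under 0.05, and the median difference was 0.00. Slc25a11, the mitochondrial oxoglutarate carrier of the malate-aspartate shuttle, rose from 8.69, 8.997 and 7.99 to 10.76, 10.03 and 11.03, by 2.05 (SE 0.38, adjusted p = 0.0280 by limma). Pdk2, a kinase that switches off pyruvate dehydrogenase, fell from 12.91, 12.70 and 12.75 to 11.75, 11.86 and 11.76, by 0.99 (difference -0.99, SE 0.21, adjusted p = 0.0398). The ages did not overlap for either gene. Both gene products act in mitochondria. The tested subunits of pyruvate dehydrogenase (Pdha1 at 0.03, Pdhb at 0.04, Dlat at 0.00 and Dld at 0.12) all had adjusted p-values of at least 0.743.

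Among 12 tested acyl-CoA thioesterases and synthetases, relatives of Acot7 by substrate, 1 rose, with a list median of 0.13. This was Acsl3, which activates long-chain fatty acids, with 10.24, 10.19 and 10.09 at 3 months and 11.27, 11.24 and 11.05 at 12 months. The ages were well apart and the difference was 1.01 (SE 0.22, adjusted p = 0.0386 by limma). Among 22 tested genes of ornithine, proline and glutamate metabolism, around Oat, 1 rose, and the median was -0.07. Of 10 tested hexokinase and glucose phosphate genes and of 22 tested genes of the glutathione transferase and MAPEG families, 0 and 0 were called, with medians of -0.26 and 0.05. An unadjusted p under 0.05 was reached by 1 and 6 of them, beside 32.4% of all tested probes.

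Under the 75th percentile shift, where the median of all probes was -0.40, the list medians were -0.25 for lactate and pyruvate handling, -0.12 for acyl-CoA genes and -0.17 for the glutathione families, below 0 in place of at or above it. Under that shift the call of Acsl3 was lost (adjusted p = 0.0504), with 0 acyl-CoA genes called. The calls of Acsl3 and Pdk2 were lost in each of the 6 fits that left out 1 array, while their differences stayed between 0.97 and 1.08 and between -1.04 and -0.93 (adjusted p from 0.0575 to 0.154 and from 0.0519 to 0.153). The call of Slc25a11 was lost without 12-month replicate 1 or 3 and without 3-month replicate 1 or 3, with differences between 1.76 and 2.33 over the 6 fits.

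**Figure D4:**
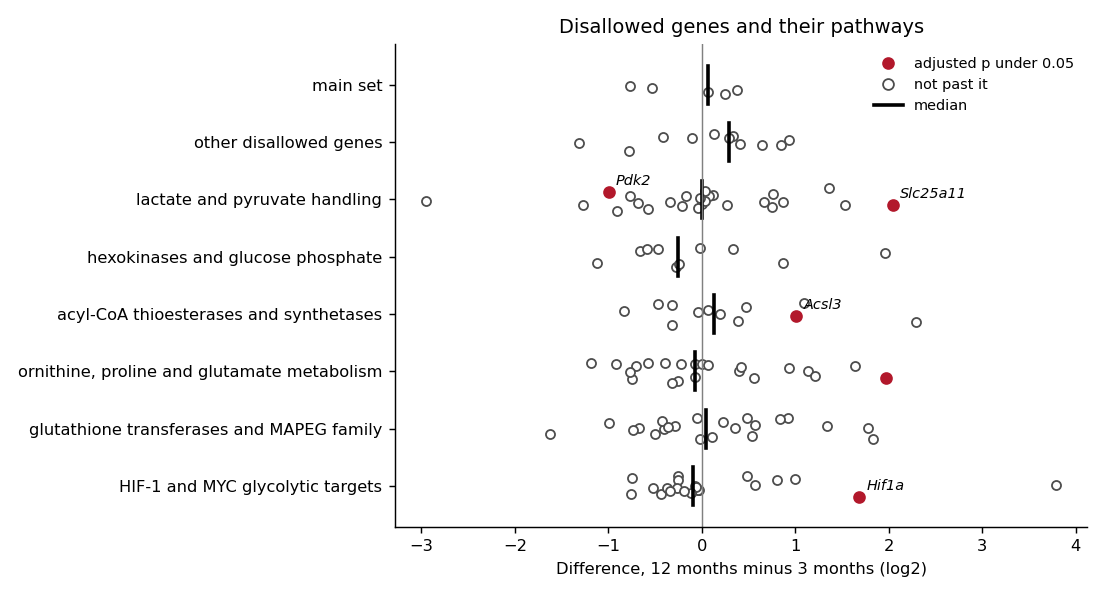
Difference between the ages, 12 months minus 3 months on the log2 scale, of each tested gene in the set of 5 members, among other disallowed genes and in 6 lists of related genes, with filled red points for an adjusted p under 0.05 by limma and black bars at each list's median. Of the 5 called genes 4 are labelled, and neither row of disallowed genes holds a called gene. Points are spread vertically for legibility alone.

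Ldha and several glycolytic genes are classical targets of the hypoxia-inducible factor HIF-1 and of MYC, which bind DNA at sites with the letters ACGTG and CACGTG respectively. RefSeq promoter windows of the GRCr8 build, from 250 bases before to 50 after the start site, were searched for ACGTG on both strands, of which every CACGTG is also a match. Such letters were in 19.3% of all 33469 windows, and CACGTG was in 6.42%. The windows of Ldha and Slc16a1 each held 2 matches, 1 of them CACGTG, and they are shown because these 2 members are the lactate pair, with the matched letters in capitals, a match on the opposite strand reading CACGT, and the plus strand written 5′ to 3′.
Ldha, chr1:106507999-106508028: agcctaCACGTGggttcccgCACGTccgct
Slc16a1, chr2:194812432-194812461: gcagcgcctagtCACGTGgcgggaaggggg
Slc16a1, chr2:194812652-194812681: gtggcgagctgcgACGTGactggtcggtcg
The window of Oat held 1 match and 1 of 2 windows of Hk1 held 1, and those of Acot7 and Mgst1 held 0. A match of letters is a description and not a bound site.

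Of 22 tested HIF-1 and MYC genes and targets, 1 was called, beside 7.86% of all tested genes, and 6 stood higher by sign, beside 43.5%, with a median difference of -0.09. The called gene was Hif1a, the oxygen-regulated subunit, which stood at 10.00, 10.26 and 10.79 at 3 months and 11.77, 12.55 and 11.79 at 12 months. All 12-month arrays lay above all 3-month arrays, and the gene rose by 1.68 (SE 0.34, adjusted p = 0.0335 by limma), and its difference stayed between 1.42 and 1.90 when 1 array was left out. Of those 6 fits 5 lost the call, all except that without 12-month replicate 2, which had the smallest difference. Of the other 21 tested genes of the list, Myc had the largest difference (3.79, adjusted p = 0.0619). Its 3-month levels were low and spread, at 4.63, 6.86 and 2.69, well above background on 2 of 3 arrays. The glycolytic enzymes among the 21 ran from -0.76 for Pgk1 (adjusted p = 0.0880) to 0.58 for Gapdh (adjusted p = 0.668). Ldha, with its difference of -0.53, likewise did not pass. Myc, Pgk1 and Gapdh were chosen after their values were seen.

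Markers of cell types moved between the same arrays. Their calls stand beside 5.32% of all tested probes called higher and 3.05% called lower at 12 months. Of 12 tested beta cell markers 3 rose, Slc2a2 by 4.11, Slc30a8 by 3.71 and Neurod1 by 2.20. By sign 9 of the 12 stood higher and 3 lower, with a median difference of 0.77 (0.35 under the 75th percentile shift). Iapp (0.95), Pcsk1 (0.59), Ucn3 (1.49) and Abcc8 (1.62) were higher without a call (adjusted p = 0.0532, 0.172, 0.174 and 0.285 by limma). Ins1 at 0.10, Ins2 at -0.12, Nkx6-1 at -0.22 and Glp1r at 0.04 differed little, with adjusted p-values of at least 0.650. Ins1 lay between 18.43 and 18.86, at the top ranks, where quantile normalisation sets shared values on every array. A change in such a transcript can be hidden there. The list's summed linear signal ran from 862400 to 999500 at 3 months and from 1122000 to 1255000 at 12 months, leaving out 1 marker missing on an array, and Ins1, Ins2 and Iapp, at mean log2 levels of 17.33 to 18.77, carried 84.8% to 93.4% of it. The rise was not particular to beta cell markers. Of 11 tested markers of other endocrine cells 1 rose, and 10 stood higher and 1 lower by sign. Their median was 0.32 (-0.04 under the 75th percentile shift), with a summed signal of 952600 to 1035000 at 3 months and 1155000 to 1303000 at 12 months. Of 12 tested nerve and Schwann cell markers 3 fell, with a median difference of -1.07, and 1 listed marker was above background on no array. Their summed signal was 11650 to 16190 at 3 months and 6022 to 8564 at 12 months. Of 9 tested stellate and mesenchymal markers 1 rose, with a median of 1.39 and a summed signal of 70110 to 80510 against 67440 to 146600. Of 9 tested duct markers 1 fell (median 0.05), and of 13 immune and 6 red blood cell markers 0 and 0 were called (medians -0.18 and -0.65). Of 7 endothelial markers 0 were called (median -0.75) and of 15 acinar markers 0 (median 0.10, or -0.52 under the 75th percentile shift). The summed acinar signal was 3042000 to 3773000 at 3 months and 2910000 to 4184000 at 12 months, above the beta cell sum on every array. Acinar markers such as Prss2 and Cela2a also lay at the top ranks, so like sums do not show like amounts of exocrine tissue. Ctrb1, Cel and Clps, picked out after their values were seen, ran from 13.85 to 17.31 at 3 months and from 14.36 to 17.91 at 12 months. Sox10, whose fit lacks 3-month replicate 1, was among the nerve markers called. The part of these cell types in the values of the disallowed genes was not tested.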

How the data were processed

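RNA of pancreatic islets was profiled on 6 1-colour arrays of 42136 non-control spots for 24684 probes, 3 arrays per age, with age taken from the labels. Each deposited scanner file gives, per the file headers, background-subtracted spot intensity from Agilent Feature Extraction 11.0.1.1, with no normalisation between arrays, median intensity of spot and local background, and quality marks (other columns, per the file headers). The authors also deposited quantile-normalised log2 values of a part of the probes, used as an alternative. Arrays have no read depth, and their number limits the precision.

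Spots marked as outliers were dropped, the log2 intensity of a probe's other spots was averaged, and arrays were quantile normalised. Probes well above background on at least 3 of 6 arrays were kept (17940), and 17937 were tested with limma 3.58.1 in R 4.3.3 (lmFit, eBayes, two-sided, no block, Benjamini-Hochberg). No spot was saturated. The fit was checked on simulated data with known changes. Genes were named through RefSeq accessions without version (assembly GRCr8), which matched 14274 of 15321 mRNA probes, and a gene took its probe with the highest mean. The array design uses another build. Where 0 arrays of an age cleared background, only a bound on a fold could be given. Rats were separate animals per the design text, so spread between arrays covers animals and handling.

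The members, gene lists and tests were chosen with earlier results of these data known. Partners were always named, and from each list the genes past an adjusted p of 0.05 with ages not overlapping and background cleared on each of the 3 arrays where the gene was higher. A few genes are not reported here by name, although counts and medians include them. The study's lists of changed genes name a paired t-test; the labels give no pairs for all 6 arrays, and it was not run. Promoter windows came from RefSeq. Alternatives were a 75th percentile shift, normexp with an offset of 50, the authors' table, other filters, array weights, robust variances with an intensity trend, a replicate block, 4 arrays whose names share an ending, the methods' t-test (Student's, run unpaired per probe), an adjusted p under 0.1, the mean over a gene's probes, and each array left out. Added after seeing the data were the list medians and the counts of members not overlapping under the scalings and without single arrays.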

Additional observations from a re-analysis of the deposited data

How the results depend on the processing

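The count of members called was 0 in all 18 alternatives, at an adjusted p under 0.05 or, in the setting that raised it, under 0.1. The count at the study's threshold was 1, Acot7, with the replicate block over the 2 numbered pairs (difference -1.35) and ranged from 0 to 1 when 1 array was left out. The count of members not overlapping was 0 under the 3 other sets of values and ranged from 0 to 1 when 1 array was left out. The count of other disallowed genes called was 1 in each of 6 alternatives, namely the 75th percentile shift, normexp, the filter on all 6 arrays, the trend with robust variances and an adjusted p under 0.1 (Ndrg2), and array weights (Igfbp4). Differences changed sign for Slc16a1 (-0.22) and Slc16a7 (-0.23) under the 75th percentile shift, Oat (-0.0088) under normexp, Bsg (-0.31) under the replicate block and Ldha (0.27) as the mean over its probes. When 1 array was left out they ranged from -0.0054 to 0.60 for Slc16a1, from -0.058 to 0.18 for Oat and from -0.0064 to 0.46 for Mgst1. The cause was not tested. The median difference of the members minus that of all tested probes was 0.24, and 0.17 and 0.090 under the 75th percentile shift and normexp, where the medians of all probes were -0.40 and -0.099. Under normexp the called genes, higher and lower, numbered 2 and 3 in lactate and pyruvate handling, 1 and 1 among acyl-CoA genes, 2 and 1 in the ornithine list, 2 and 1 in the glutathione list and 4 and 1 in the HIF-1 and MYC list. Under the 75th percentile shift they numbered 1 and 1, 0 and 0, 1 and 1, 0 and 1 and 1 and 1 in the same order.

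The labels number all 3-month arrays and 2 of the 12-month arrays. Because the numbering is incomplete, the numbers were not taken to pair the samples, although the study's lists name a paired t-test. Deviations from the age means correlated at -0.010 for the arrays numbered 1 and -0.31 for those numbered 2. These values cannot decide whether the samples were paired, as arrays with unlike numbers were not compared. With the replicate block 0 of 17899 probes were called. The fit on 4 arrays also called 0 probes, and over the fits without 1 array the count ran from 208 to 2177, against 1502. The methods' t-test called 435 probes after adjustment, and array weights 4066. Slc16a1 and Slc16a7 near background limit what the arrays resolve there.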
